A study of Drosophila melanogaster with 6 samples.

Results

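Expression and exon use of 9 genes of the ecdysone cascade were examined in the indirect flight muscle (IFM) of *Drosophila* pupae at 72 h after puparium formation (APF): *EcR*, *usp*, *ftz-f1*, *Hr3*, *br*, *Eip74EF*, *Eip75B*, *Eip78C* and *Eip93F*. The genes were chosen by their FlyBase symbols, as genes whose levels change with developmental time. Of the 9 genes, 6 had exon bins (the pieces into which the exon ends of all transcripts cut a gene), 89 bins out of 77774 in 16428 genes. The other 3 genes, *usp*, *ftz-f1* and *Hr3*, had values only in the counts per gene, which held 16917 genes.

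The mRNA-Seq data compared IFM from pupae in which a muscle driver, Mef2-Gal4, expressed a hairpin against the splicing factor *SF1* (SF1-IR, hairpin GD5176) or against the hnRNPA homolog *Hrb87F* (Hrb87F-IR, hairpin TRiP.JF01757) with IFM of Mef2-Gal4 / + pupae (WT), to find genes and exons that depend on either factor. Each of the 3 groups had 2 libraries, each from the pooled IFM of many flies, and all flies carried Mef2-Gal4, which acts in all muscles, and were kept at 27 °C. Each gene was targeted by a single hairpin. Nothing in the labels says that the 2 libraries of a group came from separate crosses, so p-values measure only the spread between these libraries. The comparisons of both knockdowns share the 2 WT libraries.

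Ecdysone is the steroid hormone that times insect moulting and metamorphosis. It binds a heterodimer of the nuclear receptors EcR and Usp, which directly switches on early genes, among them the transcription factors Br, E74 and E75. These in turn regulate early-late receptors such as Hr3 and E78, the competence factor Ftz-f1 and the adult specifier E93. Several of these genes make different proteins from alternative promoters or 3′ ends, each used at its own hormone concentration or time, so that single exons carry information that the sum over a gene does not.

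Exon-bin counts totalled 63393347 to 72057010 per library, where a read that covers several bins counts in each. *Hrb87F* had 14.8 and 18.1 CPM (counts-per-million after TMM scaling between libraries, here and below unless stated) in Hrb87F-IR, against 29.8 and 30.5 CPM in WT (log2 fold change −0.87 ± 0.13 (SE), edgeR adjusted p = 0.0347). *SF1* had 25.6 and 19.3 CPM in SF1-IR, against 24.6 and 29.9 CPM in WT, so the groups overlapped and the reduction of the targeted gene was not past the test in the libraries labelled SF1-IR (log2 fold change −0.28 ± 0.17 (SE), edgeR adjusted p = 0.473). The 7 muscle markers, led by *Mhc* and *Act88F*, summed to 148000 and 147000 CPM in SF1-IR and 152000 and 138000 CPM in Hrb87F-IR, against 205000 and 227000 CPM in WT. The 3 measured neuronal markers summed to 384 and 303 CPM in SF1-IR and 363 and 368 CPM in Hrb87F-IR, against 273 and 286 CPM in WT. The 7 measured fat body markers summed to 329 and 313 CPM in SF1-IR and 245 and 247 CPM in Hrb87F-IR, against 282 and 259 CPM in WT. Of these, *Lsp2*, a larval serum protein, was at −0.65 ± 0.10 on the log2 scale in Hrb87F-IR (SE, adjusted p = 0.0344, edgeR). In SF1-IR it was at 0.34 ± 0.10 (adjusted p = 0.101, edgeR), and it was higher in SF1-IR than in Hrb87F-IR by 0.98 ± 0.10 (adjusted p = 0.00332, edgeR). In Hrb87F-IR the median of the 6 tested fat body markers was −0.35, and *apolpp* was at 0.30 ± 0.21 (adjusted p = 0.584, edgeR). The 5 epidermis and cuticle markers summed to 268 and 339 CPM in SF1-IR and 309 and 372 CPM in Hrb87F-IR, against 232 CPM in both WT libraries. The 4 measured haemocyte markers summed to 127 and 128 CPM in SF1-IR and 142 and 136 CPM in Hrb87F-IR, against 141 and 130 CPM in WT, and trachea and tendon markers overlapped between the groups. The 5 measured testis markers summed to 32.8 CPM in SF1-IR replicate 2 and 38.0 CPM in WT replicate 1, and to at most 7.78 CPM in the other 4 libraries. In whole tissue, fewer cells of a type and less RNA per cell cannot be told apart, and the part of these differences in the levels of the ecdysone genes was not tested.

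At the gene level, none of the 6 genes with exon bins was called in either knockdown. Gene counts (sums of a gene's exon-bin counts) were compared with edgeR's quasi-likelihood test, with the 6 libraries in one fit, and called at a Benjamini-Hochberg adjusted p under 0.01 over 11753 genes. Of these 6 genes, 0 were called in SF1-IR against WT, where 2.68% of all tested genes were called, and 0 in Hrb87F-IR against WT, where 0.0596% were called. At an unadjusted p under 0.05, edgeR likewise found 0 of the 6 genes in both comparisons, against 19.6% and 15.2% of all tested genes. DESeq2 called 0 of the 6 at an adjusted p under 0.01, where it called 11.4% of the genes with an adjusted p in SF1-IR and 6.66% in Hrb87F-IR. All 6 genes had an absolute log2 fold change under 0.3 in both comparisons, as did 46.4% of all tested genes in SF1-IR and 46.2% in Hrb87F-IR. These shares are of tested genes at all levels, not matched to the 6.

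*EcR* encodes the hormone-binding subunit of the receptor. It had 59.3 and 55.4 CPM in SF1-IR and 51.7 and 50.3 CPM in Hrb87F-IR, against 55.5 and 62.9 CPM in WT. The SF1-IR values lay within or just below the WT range, and both Hrb87F-IR libraries lay below both WT libraries. Its log2 fold change was −0.04 ± 0.11 in SF1-IR (SE, adjusted p = 0.961, edgeR), and that in Hrb87F-IR was −0.22 ± 0.11 (adjusted p = 0.421, edgeR). The unadjusted p in Hrb87F-IR, 0.0867, was the smallest of any of the 6 genes in a comparison with WT. DESeq2 gave an unadjusted p of 0.0482 and an adjusted p of 0.235 for *EcR* in Hrb87F-IR.

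The early genes *br*, *Eip74EF* and *Eip75B* encode a family of BTB zinc-finger factors, an ETS-domain factor and a haem-binding nuclear receptor. *br* had 14.3 and 10.6 CPM in SF1-IR and 16.7 and 13.2 CPM in Hrb87F-IR, against 13.6 and 15.8 CPM in WT. *Eip75B* had 58.8 and 46.9 CPM in SF1-IR and 60.7 and 47.9 CPM in Hrb87F-IR, against 48.8 and 61.0 CPM in WT. The groups of both genes overlapped. *Eip74EF* had 148 and 124 CPM in SF1-IR and 157 and 134 CPM in Hrb87F-IR, against 158 and 161 CPM in WT. All 4 knockdown libraries of *Eip74EF* were below both WT libraries, though Hrb87F-IR replicate 1 was nearly level with them. The log2 fold change of *Eip74EF* was −0.23 ± 0.13 in SF1-IR (SE, adjusted p = 0.419, edgeR) and −0.13 ± 0.13 in Hrb87F-IR (adjusted p = 0.705, edgeR). That of *br* was −0.24 ± 0.20 in SF1-IR (adjusted p = 0.655, edgeR) and 0.03 ± 0.20 in Hrb87F-IR (adjusted p = 0.968, edgeR).

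*Eip78C*, which encodes a nuclear receptor related to E75, had 57.8 and 46.1 CPM in SF1-IR and 54.1 and 47.4 CPM in Hrb87F-IR, against 50.1 and 55.9 CPM in WT. *Eip93F* encodes E93, the factor that specifies the adult stage and switches on late programs of metamorphosis. It had 24.7 and 18.8 CPM in SF1-IR and 20.3 and 18.9 CPM in Hrb87F-IR, against 21.3 CPM in both WT libraries. The values of both genes in SF1-IR lay on either side of WT, and those of *Eip93F* in Hrb87F-IR just below WT. The log2 fold changes of *Eip75B*, *Eip78C* and *Eip93F* in SF1-IR were −0.05, −0.03 and 0.03, with SE of 0.18, 0.14 and 0.15. In Hrb87F-IR they were −0.02, −0.06 and −0.12, with the same SE.

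**Figure D1:**
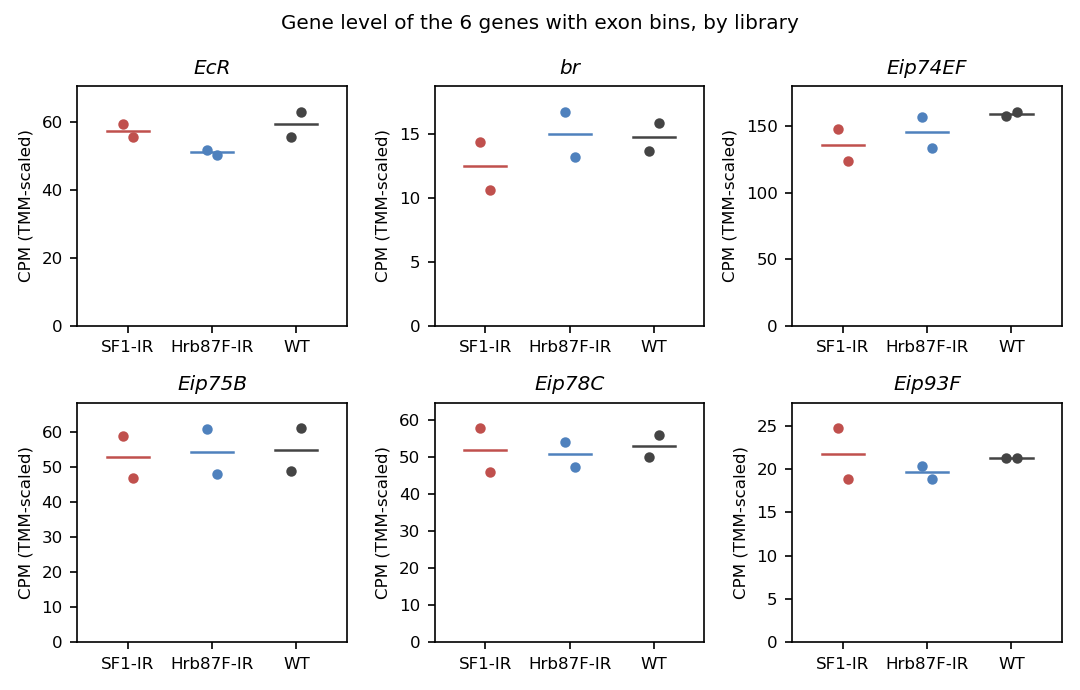
Level of the 6 ecdysone cascade genes with exon bins, in TMM-scaled CPM, with 1 point per library and a line at the mean of each group of 2 (SF1-IR, Hrb87F-IR and WT, left to right). *Eip74EF* averaged 136 ± 16.8 CPM in SF1-IR and 145 ± 15.8 CPM in Hrb87F-IR, against 159 ± 2.53 CPM in WT (SD, n = 2 each), with all 4 knockdown libraries below WT. The groups of the other genes overlap with WT, except *EcR* and *Eip93F* in Hrb87F-IR, where both libraries lie below WT.

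The size of change that these libraries could have missed is given by the 95% intervals. Over the 6 genes and both comparisons with WT, log2 fold changes lay between −0.24 and 0.03 and their intervals between −0.72 and 0.51. The widest intervals were those of *br*, the gene with the fewest counts (836 to 1099 per library), at −0.72 to 0.24 in SF1-IR IFM and −0.46 to 0.51 in Hrb87F-IR. The interval of *EcR* in SF1-IR was −0.30 to 0.21, a fold of 0.812 to 1.16. For SF1-IR and for Hrb87F-IR the median of the 6 log2 fold changes was −0.05 and −0.09, beside −0.02 and −0.03 for all tested genes. Their median absolute log2 fold change was 0.05 and 0.09, beside 0.33 and 0.34 for all tested genes. All tested genes include genes with far fewer counts, such as *phtm* at 0.314 to 0.99 CPM, and were not matched to the 6 for level. The part of count depth in this difference was not tested.

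These values depend on the scaling between libraries. Relative to library size alone, *EcR* had 65.5 and 63.3 CPM in SF1-IR, against 51.2 and 53.1 CPM in WT, and *Eip75B* had 65.0 and 53.5 CPM in SF1-IR, against 45.0 and 51.5 CPM in WT. On that scale the log2 fold changes in SF1-IR were 0.30 for *EcR* and *Eip75B*, 0.32 for *Eip78C* and 0.11 for *br* and *Eip74EF*, and the median of all tested genes was 0.33. *Eip93F* was at 0.37. Under both scalings these 5 genes lay below the median of all genes and *Eip93F* above it, and 0 of the 6 were called. In Hrb87F-IR the median of all tested genes moved to 0.16 on the scale of library size alone.

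**Figure D2:**
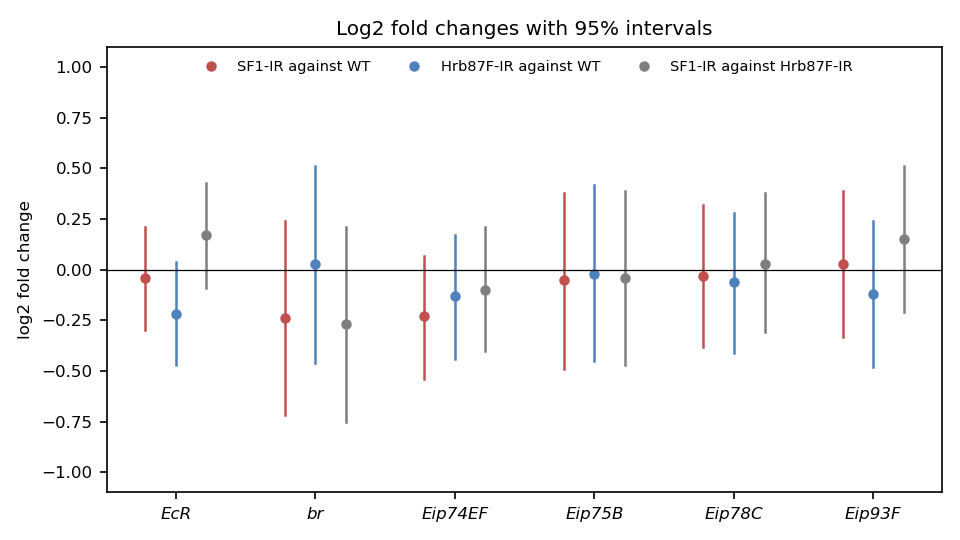
Log2 fold changes (points) with 95% intervals (lines) of the 6 genes in SF1-IR against WT, Hrb87F-IR against WT and SF1-IR against Hrb87F-IR, from edgeR over 6 libraries. Every interval includes 0, and the lowest bound is that of *br* in SF1-IR against Hrb87F-IR, at −0.75.

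Compared directly, SF1-IR and Hrb87F-IR differed for 0 of the 6 genes, where 2.13% of all tested genes were called. The log2 fold change of *EcR* was 0.17 ± 0.11 (SE, adjusted p = 0.497, edgeR) and that of *br* −0.27 ± 0.20 (adjusted p = 0.592, edgeR), both short of the threshold. The other 4 genes lay between −0.10 and 0.15.

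The order of the genes was compared per length, over the bins shared by every transcript of a gene, as CPM per kb of exon (counts per kb after scaling). *Eip74EF* was the most abundant, at 27.4 ± 2.89 in SF1-IR IFM and 29.2 ± 2.20 in Hrb87F-IR, against 30.8 ± 0.498 in WT (SD, n = 2 each). Next were *Eip78C*, with 13.6 to 16.9 over the 6 libraries, and *EcR*, with 11.3 to 13.7, whose ranges met. *Eip75B* followed at 7.64 to 10.6. *Eip93F*, at 1.5 to 2.19, and *br*, at 0.770 to 1.97, were the lowest and overlapped. The order of the group means was the same in SF1-IR, Hrb87F-IR and WT. A read that covers several bins counts in each, which can raise the level of short bins. In *EcR*, bins 5 and 6, of 153 and 144 bases, had 16.3 to 37.6 CPM per kb, and bin 4, of 1457 bases, had 9.74 to 12.1. The part of bin length in the order of the genes was not tested.

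The receptor partner Usp, the orphan receptor Hr3, which represses early genes and induces *ftz-f1*, and Ftz-f1, the receptor that makes tissues competent for the next hormone pulse, could be compared only between the knockdowns. In the counts per gene, the WT columns did not follow the exon-bin counts of the same libraries. The log2 ratio of the counts of a gene in the 2 tables, relative to its mean in the knockdown libraries, had over 5516 genes an SD of 0.859 and 1.09 in WT, against at most 0.051 in the 4 knockdown libraries. The CPM of the WT columns is given without a comparison.

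*ftz-f1* had 147 and 140 CPM of counts per gene in SF1-IR, against 146 and 141 CPM in Hrb87F-IR. *usp* had 11.7 and 11.5 CPM in SF1-IR, against 10.6 and 13.5 CPM in Hrb87F-IR. *Hr3* had 8.65 and 6.19 CPM in SF1-IR, against 7.66 and 10.4 CPM in Hrb87F-IR. The SF1-IR and Hrb87F-IR values of each gene overlapped. Of the 9 genes, 0 were called between the knockdowns in a fit of these 4 libraries, where 2.39% of 10027 genes were called. The log2 fold change was 0.00 for *ftz-f1* (95% interval −0.29 to 0.28), −0.06 for *usp* (−0.46 to 0.33) and −0.28 for *Hr3* (−0.89 to 0.34). The WT columns held 94.5 and 52.6 CPM of *ftz-f1*, 16.6 and 12.2 CPM of *usp* and 0.439 and 1.62 CPM of *Hr3*. Each of these 3 genes shares exon bases with a neighbour on the same strand in the current annotation, *usp* with *Actn*, *ftz-f1* with a long noncoding RNA and *Hr3* with 3 genes, so their counts may miss or include reads of those neighbours.

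**Figure D3:**
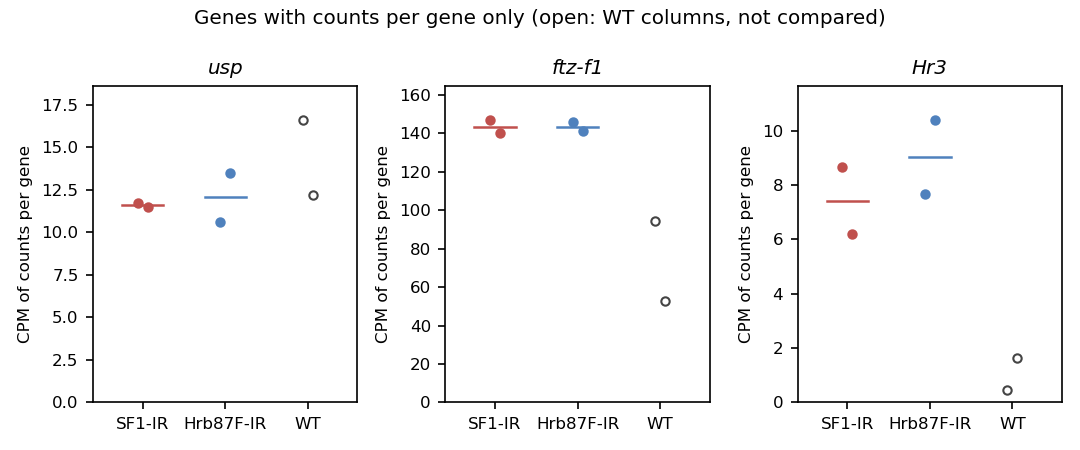
CPM of counts per gene of *usp*, *ftz-f1* and *Hr3*, with 1 point per library and a line at the mean of the 2 libraries of SF1-IR and Hrb87F-IR. *ftz-f1* averaged 144 ± 5.00 CPM in SF1-IR and 143 ± 3.09 CPM in Hrb87F-IR (SD, n = 2 each). Open points are WT columns, which did not follow the exon-bin counts and were not compared.

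Exon use, the change of a bin relative to the other bins of its gene, was tested for 66 of the 89 bins of the 6 genes, those with enough counts and called at an unadjusted p under 0.01. In SF1-IR 1 of the 66 bins was called, where 0.972% of 53818 tested bins were called. In Hrb87F-IR 0 of the 66 were called, where 0.656% were called. At an unadjusted p under 0.05, edgeR found 1 of the 66 bins in SF1-IR, beside 2.09% of all tested bins, and 2 in Hrb87F-IR, beside 2% of all.

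The called bin was bin 10 of *Eip75B*, the first exon of transcript RC (chromosome 3L, 17998423 to 17999821, minus strand, BDGP6). It held 16 and 10 counts in SF1-IR and 12 and 0 counts in Hrb87F-IR, against 0 and 0 counts in WT. It had enough counts for a test only through the libraries in which it was high, so the test and the call rest on those few counts. It was not tested where at least 10 counts were required in every library, and 1 Hrb87F-IR library held none, like WT. A count of 0 allows up to 3 counts in each WT library, and no fold is given for so few counts. The p was 0.00351 in SF1-IR IFM and 0.0125 in Hrb87F-IR, with adjusted p of 0.543 and 1.0 over all bins (edgeR). The call was lost without any one of the WT or SF1-IR libraries, where the unadjusted p lay between 0.0147 and 0.0531, and with limma's diffSplice (adjusted p = 1.0). In Hrb87F-IR the bin was called without replicate 2 (adjusted p = 1.0, edgeR).

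The RC exon was a minor part of *Eip75B*. Of the summed level of its alternative first exons, in counts per kb, RC made up 1.41% and 0.884% in SF1-IR IFM and 1.15% and 0% in Hrb87F-IR, against 0% in both WT libraries. Transcripts RA and RG gave nearly all of it. RA made up 41.6% and 47.8% in SF1-IR IFM and 52.9% and 47.9% in Hrb87F-IR, against 39.7% and 49.7% in WT. RG made up 53.2% and 44.7% in SF1-IR IFM and 41.8% and 41.9% in Hrb87F-IR, against 56.6% and 46.4% in WT. The groups overlapped for RA, whereas both Hrb87F-IR shares of RG were below both WT shares. The change in use of the RG exon was −0.10 in SF1-IR (log2, adjusted p = 1.0, edgeR) and −0.55 in Hrb87F-IR (adjusted p = 1.0, edgeR), neither called. The RD exon reached 3.13% to 9.78% over the 6 libraries, and the exons of RB, RE and RF, which lie farthest upstream, together held at most 11 counts in any library.

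*EcR* makes EcR-A from an upstream promoter and EcR-B1 and EcR-B2 from a downstream one, and the isoforms are known to differ between tissues that grow and tissues that are lost in metamorphosis. Bins of both promoters were detected in IFM. The EcR-A bins (11 and 12) had 8.98 and 8.66 CPM per kb in SF1-IR IFM and 8.17 and 7.75 in Hrb87F-IR, against 8.23 and 7.71 in WT. The EcR-B1 bin (8) had 4.18 and 4.57 in SF1-IR IFM and 4.38 and 3.70 in Hrb87F-IR, against 4.66 and 3.51 in WT. For the EcR-A bins both SF1-IR libraries were slightly above WT, and the other groups overlapped with WT. Bin 9, which all EcR-B transcripts share, had 7.16 and 5.00 CPM per kb in SF1-IR IFM and 4.53 and 3.68 in Hrb87F-IR, against 7.06 and 7.92 in WT. Its raw counts were 231 and 208 in Hrb87F-IR, against 364 and 334 in WT, and both Hrb87F-IR libraries were below the other 4.

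The ratio of the EcR-A bins to bin 9 was 1.25 and 1.73 in SF1-IR IFM and 1.80 and 2.10 in Hrb87F-IR, against 1.17 and 0.974 in WT. The ratio of the EcR-A bins to the EcR-B1 bin overlapped between the groups, at 2.15 and 1.89 in SF1-IR IFM and 1.86 and 2.10 in Hrb87F-IR, against 1.77 and 2.20 in WT. The log2 change in use of bin 9 was −0.65 in Hrb87F-IR (adjusted p = 1.0, edgeR), where its unadjusted p of 0.0339 fell short of the call, and −0.26 in SF1-IR (adjusted p = 1.0, edgeR). limma's diffSplice called bin 9 in Hrb87F-IR, at an unadjusted p of 0.00612 (adjusted p = 0.564), where it called 1.52% of all tested bins and only this bin of the 66. The neighbouring bin 10, shared by RB and RC, had 42 and 21 counts in Hrb87F-IR, against 71 and 46 in WT, with a log2 change in use of −0.84 (adjusted p = 1.0, edgeR). The EcR-B1 bin, downstream of the same promoter, had a log2 change in use of 0.19 in Hrb87F-IR (adjusted p = 1.0, edgeR).

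**Figure D4:**
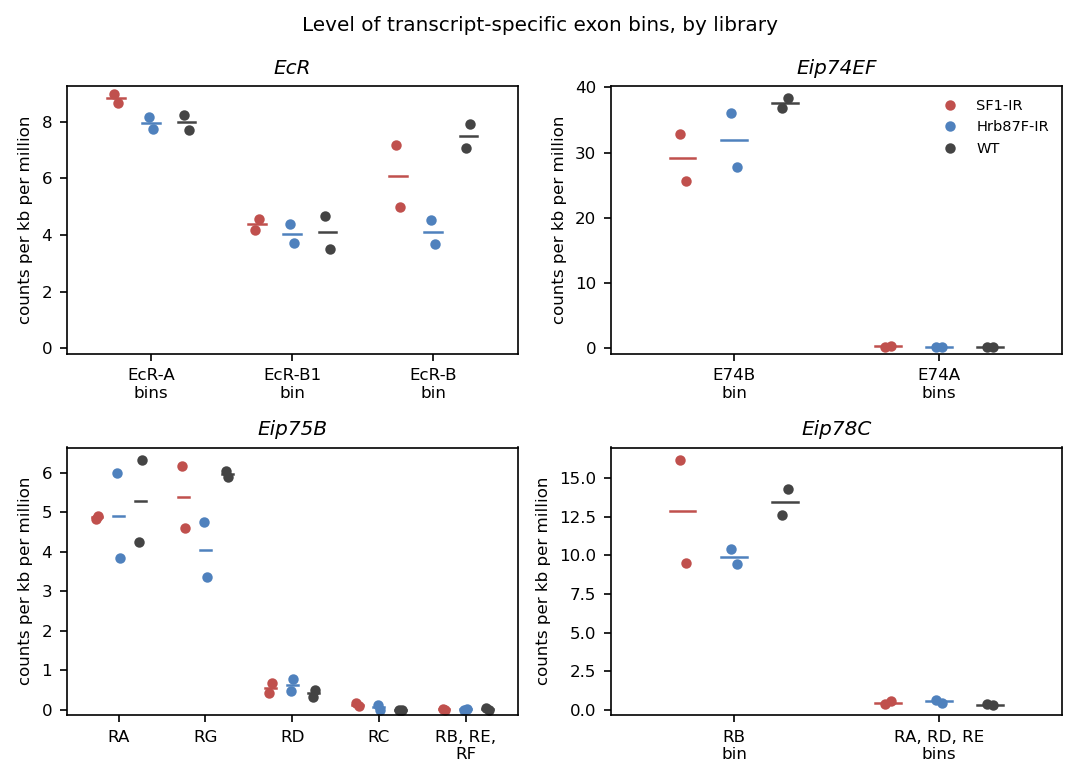
Level of transcript-specific exon bins of *EcR*, *Eip74EF*, *Eip75B* and *Eip78C*, in CPM per kb, with 1 point per library and a line at the mean of each group (SF1-IR, Hrb87F-IR and WT, left to right within each set of bins). The E74B bin lies far above the E74A bins, and the RB bin of *Eip78C* far above those of RA, RD and RE, in all 6 libraries, and bin 9 of *EcR* (EcR-B) averaged 4.11 ± 0.600 in Hrb87F-IR, against 7.49 ± 0.610 in WT (SD, n = 2 each).

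*Eip74EF* makes E74B from its inner promoter and E74A from an outer one, and E74A is known to need more hormone than E74B. The inner first exon (bin 5, transcripts RB and RD, chromosome 3L, 17574793 to 17576320, minus strand, BDGP6) held 3508 and 3088 counts in SF1-IR and 3625 and 3094 counts in Hrb87F-IR, against 3752 and 3179 counts in WT. The 5 E74A bins together held 41 and 91 counts in SF1-IR and 37 and 31 counts in Hrb87F-IR, against 34 and 37 counts in WT. Per kb, the E74B bin was 156 and 61.9 times the E74A bins in SF1-IR IFM and 179 and 182 times in Hrb87F-IR, against 201 and 157 times in WT. In all 6 libraries the E74B exon far exceeded the E74A exons, and the ratio was lowest in SF1-IR replicate 2. Of the tested E74A bins, bin 8 had the smallest p, with a log2 change in use of 1.87 in SF1-IR IFM and −2.17 in Hrb87F-IR (adjusted p = 1.0 in both, edgeR). It held 10 and 27 counts in SF1-IR and 0 and 2 counts in Hrb87F-IR, against 2 and 7 counts in WT. Only the SF1-IR libraries, in which it was high, gave it enough counts for a test, and both changes rest on those few counts.

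*Eip78C* makes E78A from an upstream promoter and E78B, which lacks the DNA-binding domain, from an inner one. The RB first exon (bin 7, E78B) held 517 and 343 counts in SF1-IR and 312 and 314 counts in Hrb87F-IR, against 382 and 354 counts in WT. The 6 bins of RA, RD and RE together held 52 and 89 counts in SF1-IR and 86 and 67 counts in Hrb87F-IR, against 47 and 34 counts in WT. Per kb, the RB bin was 44.5 and 17.3 times the bins of RA, RD and RE in SF1-IR IFM and 16.2 and 21 times in Hrb87F-IR, against 36.4 and 46.6 times in WT. The E78B exon exceeded the others in every library, by a smaller margin in both Hrb87F-IR libraries and SF1-IR replicate 2 than in WT. In Hrb87F-IR, bin 6 alone gave 32 and 17 of the 86 and 67 counts of the RA, RD and RE bins. Bin 6, in RA, RD and RE, held 3 and 7 counts in SF1-IR and 32 and 17 counts in Hrb87F-IR, against 6 and 2 in WT. Its change in use in Hrb87F-IR was 2.51 on the log2 scale (adjusted p = 1.0, edgeR). It had enough counts for a test only through the Hrb87F-IR libraries, in which it was high, so this value rests on those few counts. Neither bin 6 nor bin 7 (−0.37, adjusted p = 1.0, edgeR) was called in Hrb87F-IR.

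*br* ends in alternative exons that encode different zinc-finger pairs. Its 3′ bins were put in 4 sets, and each set was taken as a share of their summed level. Bins 19 and 20 gave the largest share, with 41.9% and 43.0% in SF1-IR IFM and 55.6% and 53.2% in Hrb87F-IR, against 51.2% and 53.5% in WT. Transcript RL holds bins 21, 22 and 23. It therefore counts both in the set of bins 21 and 22 and in that of bin 23, which are not separate 3′ ends. Bin 18 gave 19.7% to 32.9% and bin 23 gave 11.4% to 21.6% over the 6 libraries, while bins 21 and 22 gave 2.46% to 14%. Both SF1-IR shares of bins 19 and 20 lay below the other 4 libraries, but the change in use of bin 20 in SF1-IR was −0.36 on the log2 scale (adjusted p = 1.0, edgeR). Bin 23 overlaps *Mur2B* on the opposite strand. The first exon shared by 8 of the 14 *br* transcripts (bin 7) held 1 count in WT replicate 1 and 0 in the other 5 libraries. For *Eip93F*, the RB first exons held 42 and 20 counts in SF1-IR and 8 and 16 counts in Hrb87F-IR, against 13 and 4 counts in WT. Its RA and RC first exons held 7 and 12 counts in SF1-IR and 10 and 29 counts in Hrb87F-IR, against 28 and 28 counts in WT. The RB exons held more counts than the RA and RC exons in both SF1-IR libraries and fewer in both WT libraries, and the 3 of these 5 bins that had enough counts for a test were not called. Bin 3 of *Eip93F*, with the smallest p in SF1-IR, had a log2 change in use of 2.26 (adjusted p = 1.0, edgeR). It held 26 and 9 counts in SF1-IR and 3 and 12 counts in Hrb87F-IR, against 6 and 0 counts in WT. Bin 2 held 16 and 11 counts in SF1-IR and 3 and 2 counts in Hrb87F-IR, against 5 and 4 counts in WT. Only the SF1-IR libraries, in which it was high, gave bin 2 enough counts for a test. The values of both bins rest on those few counts.

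**Figure D5:**
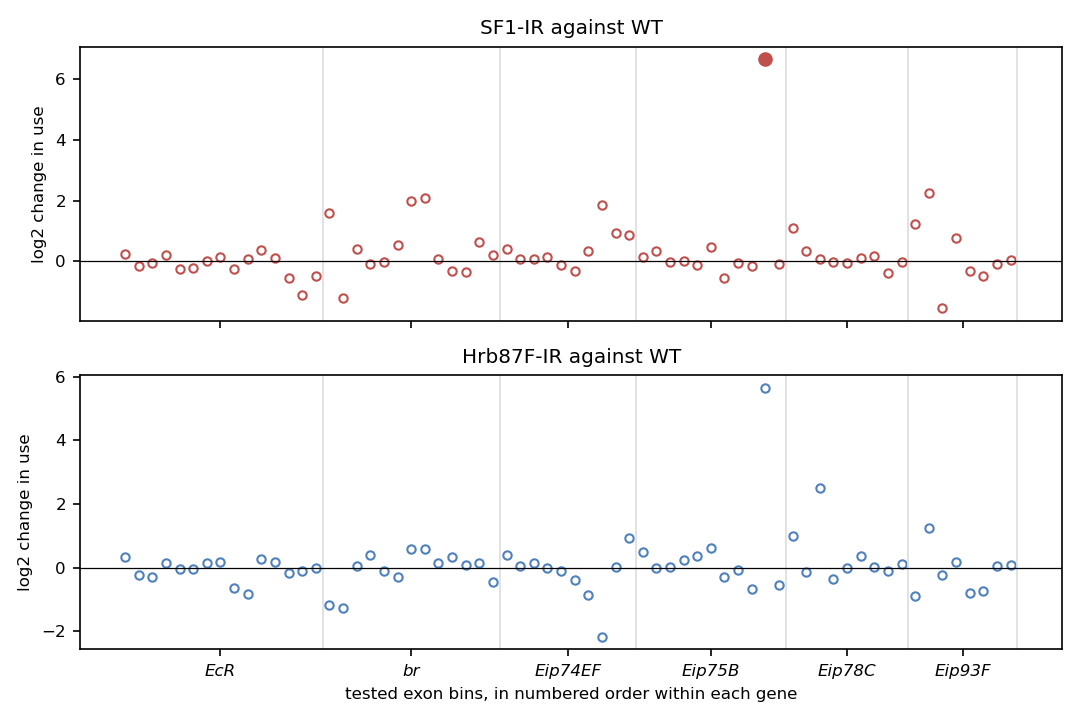
Log2 change in use of the 66 tested exon bins of the 6 genes in SF1-IR against WT (upper panel) and Hrb87F-IR against WT (lower panel), in numbered order within each gene. The filled point is the called bin, bin 10 of *Eip75B*, and open points are bins that were not called. The height of the filled point is a fitted value over WT libraries with 0 counts, which depends on the fit's prior count and is no measure of the size of the change.

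Other genes of the pathway were described from lists. Of the 8 tested genes of ecdysteroid synthesis, import and turnover, 0 were called in either knockdown at an adjusted p under 0.01, with a median of −0.15 (log2) for SF1-IR IFM and −0.01 for Hrb87F-IR. The same count was 0 of 5 receptor cofactors, 0 of 9 other nuclear receptors and 0 of 21 other ecdysone-responsive or temporal genes, with medians of 0.24, −0.30 and 0.26 in SF1-IR IFM and 0.25, 0.26 and 0.07 in Hrb87F-IR. The medians of all tested genes stood at −0.02 and −0.03. At an adjusted p under 0.05, 3 of the genes of these 4 lists passed in SF1-IR, where 7.45% of all tested genes did, and 1 passed in Hrb87F-IR, where 1.77% did, so the lists stood near the share of all genes. The 4 genes are described because they passed at 0.05 and were chosen after their values were seen.

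*Cyp18a1*, the hydroxylase that inactivates ecdysteroids, had 16.1 and 14.4 CPM in Hrb87F-IR, against 7.69 and 7.09 CPM in WT, and both libraries were above all other 4 (log2 fold change 1.05 ± 0.18 (SE), adjusted p = 0.0457, edgeR). In SF1-IR it had 7.38 and 9.39 CPM (0.18 ± 0.18, adjusted p = 0.739, edgeR). *ImpL2*, a secreted inhibitor of insulin signalling that ecdysone induces, had 43.6 and 35.4 CPM in SF1-IR, against 24.0 and 21.1 CPM in WT (0.81 ± 0.14, adjusted p = 0.0182, edgeR). *E23*, an ABC transporter induced by ecdysone, had 3.34 and 3.04 CPM in SF1-IR, against 6.0 and 6.28 CPM in WT (−0.94 ± 0.19, adjusted p = 0.0336, edgeR). *Hnf4*, a nuclear receptor of lipid metabolism, had 19.8 and 17.1 CPM in SF1-IR, against 27.8 and 27.6 CPM in WT (−0.59 ± 0.12, adjusted p = 0.0372, edgeR). None of these 4 genes met the adjusted p of 0.01.

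Genes that mark stages of muscle development were set beside them. Of the 7 tested early myogenesis genes, which include the fusion genes *kirre*, *sns* and *mbc*, 0 were called in either knockdown, with median log2 fold changes of −0.07 for SF1-IR IFM and 0.12 for Hrb87F-IR. Of the 6 late flight muscle genes 0 were called at an adjusted p under 0.01, and the median was −0.59 in SF1-IR IFM and −0.44 in Hrb87F-IR. At an adjusted p under 0.05, *Act88F*, *fln* and *Strn-Mlck* passed in SF1-IR, and *Mf* and *Mhc* passed in Hrb87F-IR, all lower than WT and read against the same 7.45% and 1.77% of all tested genes. *Act88F*, the flight muscle actin, had 31300 and 33300 CPM in SF1-IR and 37200 and 32700 CPM in Hrb87F-IR, against 47800 and 50200 CPM in WT. The log2 fold change of *Act88F* was −0.60 ± 0.10 in SF1-IR (SE, adjusted p = 0.0183, edgeR).

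The genes whose level over the 6 libraries was most like that of *EcR*, the gene with the smallest p, were *CG42542*, *Rtca* and *Nep1*, with Pearson's r of log2 CPM of 0.991, 0.984 and 0.983 among 7722 genes. *CG42542* had 37.9 and 31.4 CPM in SF1-IR and 27.2 and 26.4 CPM in Hrb87F-IR, against 32.8 and 40.6 CPM in WT. These correlations over 6 libraries are a description and share the libraries' depth and scaling.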

How the data were processed

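The labels and the study's methods describe poly A-selected, stranded libraries that the authors mapped with STAR 2.7.3a to BDGP6 and counted with featureCounts (Subread 2.0.0). Whether strand was used in counting is not given in the sources used here. The authors deposited unnormalized gene counts and exon-bin counts, and their own DESeq2 and DEXSeq comparisons, whose fold changes and p-values were not used. Of the exon comparison only the deposited bin positions (other values, in bases) and the transcript lists of the bins were taken. The transcripts were named from the current annotation. No per-sample column was left unmatched. Exon-bin counts were summed per gene, because WT columns of the counts per gene did not follow them, and genes without bins were read from the counts per gene.

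Genes were tested with edgeR 4.0.16 in R 4.3.3 (TMM, filterByExpr, glmQLFit with robust fitting, glmQLFTest, 6 libraries in a common fit, no covariate) and exon use with diffSpliceDGE. Functions were tested on simulated data. TMM factors were 1.10 and 1.14 for SF1-IR, 0.974 and 1.05 for Hrb87F-IR and 0.922 and 0.844 for WT. The 95% intervals are the log2 fold change ± its SE times a t quantile. A count of 0 allows up to 3 counts; this covers counting error only.

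The genes were chosen by symbol, and the genes, lists and tests with earlier results of these data known. Named were the 9 genes, bins with an unadjusted p under 0.01 or specific to some transcripts, listed genes with an adjusted p under 0.01 against WT (there were none, and those named at 0.05 were chosen after their values were seen), and the 3 tested genes most like the gene with the smallest p. *phm*, *Eip55E* and *Eip71CD* were matched as *phtm*, *Cth* and *MsrA*. Alternatives were DESeq2 1.42.0, RLE, upper quartile or no scaling, other filters, only the groups compared, a replicate block, the counts per gene, limma 3.58.1 diffSplice, other thresholds and leaving out each library.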

Additional observations from a re-analysis of the deposited data

How the results depend on the processing

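None of the 6 genes with exon bins was called in any comparison under any of the alternatives run, including an adjusted p under 0.05 in the fit as reported and each library left out (0 to 0 calls). The smallest adjusted p over the alternatives was 0.0153 in SF1-IR against WT and 0.0145 in Hrb87F-IR against WT, both with the counts per gene, and 0.0729 in SF1-IR against Hrb87F-IR. The alternatives called 30 to 1086 of all genes in SF1-IR against WT, beside 315, 0 to 666 in Hrb87F-IR against WT, beside 7, and 0 to 1013 between the knockdowns, beside 250. With the replicate number as a block, 0 of the 6 genes were called in each of the 3 comparisons, with 1 bin called for SF1-IR and 0 for Hrb87F-IR. The labels do not say that a number marks a shared batch, and the numbers were not taken as pairs. Deviations of same-numbered libraries had r = −0.735 (SF1-IR and WT), −0.558 (Hrb87F-IR and WT) and 0.514 (SF1-IR and Hrb87F-IR). In both knockdowns replicate 1 had the higher scaled level for all 6 genes. With the WT numbers crossed and the knockdown numbers kept as pairs, chosen after seeing the data, 0 genes were called, also between the knockdowns (smallest adjusted p = 0.301, *br*, edgeR), and 1 and 0 bins.

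The single called bin in SF1-IR became 0 with limma's diffSplice, with at least 10 counts in every library (where it was not tested) and at a Benjamini-Hochberg adjusted p under 0.05, and 0 to 2 bins were called when a library was left out, beside 0.73% to 0.907% of all tested bins. Bin 16 of *br* was called in its place without WT replicate 1, where the remaining WT library held 0 counts of it. Bin 3 of *br* was called without SF1-IR replicate 1. Without either Hrb87F-IR library, bin 3 of *br* was called beside bin 10 of *Eip75B*. Bin 3 spans 22 bases and had too few counts for a test in the fit as reported. Both WT libraries held 0 counts of bin 3, SF1-IR replicates 1 and 2 held 4 and 12, and those of Hrb87F-IR 0 and 4. The calls of these *br* bins therefore rest on few counts. In Hrb87F-IR limma's diffSplice called 1 bin, bin 9 of *EcR*, beside 1.52% of all tested bins, and leaving out a library gave 0 to 1 (bin 10 of *Eip75B*, without Hrb87F-IR replicate 2), beside 0.322% to 0.79% of all. The cause was not tested.

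Of 294 refitted log2 fold changes, 40 had the opposite sign and 0 passed the threshold. Without a scaling factor, an alternative added after seeing the data, they were in SF1-IR 0.30 (*EcR*), 0.11 (*br*), 0.11 (*Eip74EF*), 0.30 (*Eip75B*) and 0.32 (*Eip78C*), in Hrb87F-IR 0.06 (*Eip74EF*), 0.18 (*Eip75B*), 0.13 (*Eip78C*) and 0.07 (*Eip93F*), and between the knockdowns 0.06 (*Eip74EF*) and 0.12 (*Eip75B*). The median of all genes moved with them. With the counts per gene they were 0.43 (*EcR*), 0.13 (*br*), 0.26 (*Eip78C*) and −0.94 (*Eip93F*) in SF1-IR, 0.24 (*EcR*) and 0.20 (*Eip78C*) in Hrb87F-IR, and 0.01 (*Eip75B*) between the knockdowns in the knockdown libraries only, an added alternative. With only the groups compared they were 0.01 (*EcR*) and 0.02 (*Eip78C*) in SF1-IR and 0.01 (*Eip75B*) between the knockdowns.

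With a library left out, values crossed 0 within −0.14 to 0.11 (*EcR*), −0.23 to 0.18 (*Eip75B*), −0.20 to 0.12 (*Eip78C*) and −0.18 to 0.21 (*Eip93F*) in SF1-IR, within −0.16 to 0.19 (*br*), −0.21 to 0.18 (*Eip75B*) and −0.17 to 0.04 (*Eip78C*) in Hrb87F-IR, and within −0.23 to 0.06 (*Eip74EF*), −0.21 to 0.18 (*Eip75B*), −0.14 to 0.19 (*Eip78C*) and −0.06 to 0.33 (*Eip93F*) between the knockdowns. A group left with 1 library was assumed to vary like the others. All 6 genes had enough counts for a test, and 23 of the 89 bins did not.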

Other observations

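The counts per gene and the exon-bin counts gave different pictures of WT for some ecdysone genes. In the counts per gene, *Eip75B* had 58.0 and 50.1 CPM in SF1-IR and 57.9 and 49.1 CPM in Hrb87F-IR, against 120 and 72.8 CPM in the WT columns, and the exon-bin counts gave near-equal levels in the 3 groups. A fit of the counts per gene put *Eip75B* at −1.29 ± 0.23 in SF1-IR and −1.25 ± 0.23 in Hrb87F-IR on the log2 scale (SE, adjusted p = 0.0153 and 0.0188, edgeR), against −0.05 and −0.02 from the exon-bin counts. *Eip93F* stood at −0.94 ± 0.17 in SF1-IR and −1.05 ± 0.17 in Hrb87F-IR in that fit (adjusted p = 0.0169 and 0.0145, edgeR), against 0.03 and −0.12 from the exon-bin counts. The knockdown columns of the counts per gene summed to between 29644449 and 31484532 counts, against 70664995 and 112295405 in the WT columns.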
